A study of Mus musculus with 12 samples.

Results

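The expression of 10 genes of the bone morphogenetic protein (BMP) pathway was examined in mouse medulloblastoma and cerebellum. The genes were chosen by name: the ligands Bmp2, Bmp4, Bmp5 and Bmp7, the receptors Bmpr1a, Bmpr1b and Bmpr2, and the inhibitor of DNA binding genes Id1, Id2 and Id3. All 10 were found among the 24091 genes of the deposited table. RNA sequencing had been done on 12 samples in 4 groups of 3. The tumors were medulloblastomas of Brca2-mut;Trp53-mut mice GB344, GB359 and GB370, and the adjacent cerebella came from the same 3 mice. The control cerebella came from 3 Brca2-mut;Trp53-WT mice (GB361, GB508 and GB512) and 3 Brca2-WT;Trp53-mut mice (GB517, GB519 and GB520), taken at postnatal day 90. Tumor mice were collected at a humane endpoint, and their ages are not given per sample in the sources used here.

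In this model, Brca2-mut stands for deletion of floxed exons that encode the PALB2-binding region, driven by Cre under the human GFAP promoter and therefore in the developing central nervous system. Trp53-mut is a global knockout in which a neo cassette replaces several exons. Every sample carried at least 1 of these mutations, and no wild-type cerebellum was among them. Whole pieces of tissue were profiled, so fewer cells of a type and less RNA per cell cannot be told apart.

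BMP ligands are secreted dimers that bring type I receptors (such as BMPR1A and BMPR1B) and type II receptors (such as BMPR2) together on the cell surface. The active receptor phosphorylates SMAD1, SMAD5 and SMAD9, which enter the nucleus with SMAD4 and switch on target genes, of which the ID genes are among the best known. ID proteins lack a DNA-binding domain and bind the E proteins that basic helix-loop-helix (bHLH) factors need as partners. In the cerebellum, BMPs from the roof plate are known to induce the granule cell lineage, and later BMP signaling is known to oppose proliferation of granule cell progenitors, the cells from which Sonic hedgehog medulloblastoma arises.

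Values are TPM, a measure of transcript level scaled for length and library total, as deposited. Their depth in reads is unknown, and precision is given here by the spread between mice. Differences are log2 fold changes of TPM + 1 fitted with limma, which understate the change of low genes. A gene was called changed at a Benjamini-Hochberg adjusted p under 0.01 with a log2 fold change of 1 or more in either direction. The p-values rest on the spread among mice within each side of a comparison (3 mice a group), moderated by limma across genes. Where both control genotypes formed a single side, that spread also held any difference between them.

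The tissue labels were compared with marker genes of cell types. In tumor against control cerebella, all 5 granule progenitor markers were higher, whereas 5 of 6 astrocyte and Bergmann glia markers, 6 of 6 oligodendrocyte, 5 of 5 Purkinje cell and 5 of 5 mature granule cell markers were lower. The summed astrocyte and Bergmann glia markers ranged from 255 to 463 TPM in tumors, from 1311 to 1407 TPM in adjacent cerebella and from 1391 to 1694 TPM in controls. The progenitor gene Atoh1 stood at 59.4 and 50.5 TPM in the adjacent cerebella of GB344 and GB359 and at 5.0 TPM in that of GB370, against at most 0.212 TPM in controls. The choroid plexus transcript Ttr stood at 842 TPM in GB361 and at 3849 to 5039 TPM in the 3 Brca2-WT;Trp53-mut cerebella, against 50.6 TPM or less in the other 8 samples. The 6 meningeal fibroblast markers summed to 131 TPM in the GB344 tumor, 31.8 in GB359 and 78.4 in GB370, against 65.04 to 115 TPM in the other samples. Of the 6, Col1a1, Col1a2, Lum and Foxc1 were highest of the tumors in GB344, whereas Dcn and Slc6a13 were highest in GB370. Brca2 lay between 8.22 and 14.6 TPM in tumors and between 3.24 and 4.40 TPM in controls. Trp53 lay between 124 and 130 TPM in tumors, 66.1 and 85.0 in adjacent, 33.1 and 37.2 in Trp53-WT and 47.1 and 49.4 in Brca2-WT;Trp53-mut cerebella. Gene-level TPM include the exons outside both deletions, so these values check neither genotype.

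The first comparison asked how the 10 genes stood in tumors relative to the 6 control cerebella. Id1 was higher in tumors, and Bmp5, Bmpr1b and Id2 were lower. Bmp4, Bmp7, Bmpr1a, Bmpr2 and Id3 were not called, and Bmp2 was too low to be tested. That is 1 higher and 3 lower of 9 tested genes, where 14.4% of all 16241 tested genes were higher and 21.5% were lower. The median difference of the 9 was -0.50 on the log2 scale, against -0.11 over all tested genes. The tumors did not overlap the controls for 6 of the 10, including the untested Bmp2, beside 64% of all tested genes.

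**Figure D1:**
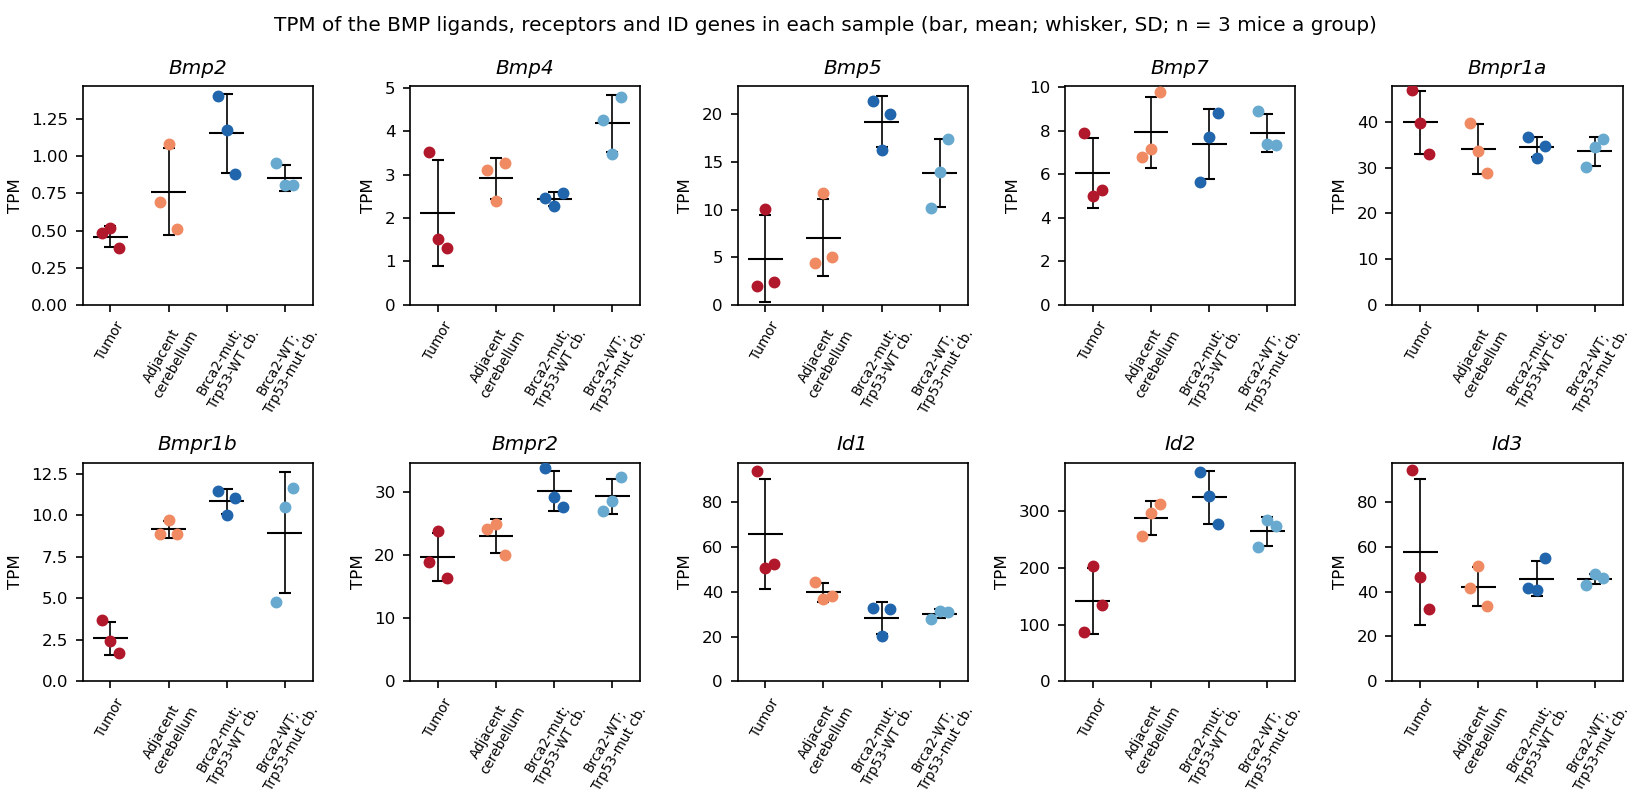
TPM (vertical axis, linear from 0) of each of the 10 genes in the 3 samples of each of the 4 groups, with the horizontal bar at the mean and the whisker showing the SD. The 3 tumors lie below every control cerebellum for Bmp2, Bmp5, Bmpr1b, Bmpr2 and Id2 and above every control for Id1, where 64% of all tested genes had groups that did not overlap. Bmp2 was not among the tested genes.

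Among the ligands, Bmp5 differed most. BMP5 is a ligand of the BMP5/6/7 subfamily. It stood at 2.0, 10.1 and 2.37 TPM in the tumors of GB344, GB359 and GB370. The Brca2-mut;Trp53-WT cerebella held 21.4, 16.3 and 20.1 TPM, and the Brca2-WT;Trp53-mut cerebella 10.2, 14.0 and 17.4 TPM. The tumors lay below all 6 controls, with the tumor of GB359 just below the lowest, GB517. The mean was 4.82 ± 4.56 TPM in tumors (SD, n = 3) and 16.6 ± 4.08 TPM in controls (SD, n = 6), a 3.44-fold lower mean. The log2 fold change was -1.83 (SE 0.39, adjusted p = 0.00157, limma). Bmp5 was no longer called without the tumor of GB370 (-1.57, adjusted p = 0.0101), against the Brca2-WT;Trp53-mut cerebella alone (-1.60, adjusted p = 0.0281) or without the 4 controls over 100 TPM of Ttr (-1.99, adjusted p = 0.0336). That last setting left only GB508 and GB512 as controls, both Brca2-mut;Trp53-WT, so it also removed a genotype.

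The other ligands were low and differed less. Bmp2, the closest relative of Bmp4, stood at 0.480, 0.518 and 0.379 TPM in tumors and between 0.804 and 1.41 TPM in controls. The groups did not overlap, but too few samples reached 1 TPM for a test. Bmp4 stood at 3.53, 1.51 and 1.31 TPM in tumors, and the GB344 tumor alone reached into the control range of 2.27 to 4.80 TPM. Its log2 fold change was -0.50 (SE 0.26, adjusted p = 0.107, limma). Bmp7 stood at 7.92, 5.01 and 5.26 TPM in tumors and between 5.66 and 8.92 TPM in controls, with overlapping groups and a log2 fold change of -0.30 (adjusted p = 0.135, limma).

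Of the receptors, only the type I receptor gene Bmpr1b was called. It stood at 3.67, 2.40 and 1.72 TPM in the 3 tumors. The Brca2-mut;Trp53-WT cerebella held 11.5, 10.01 and 11.03 TPM, and the Brca2-WT;Trp53-mut cerebella 4.78, 10.5 and 11.6 TPM. The groups did not overlap, and GB517 was the control nearest to the tumors. The mean was 2.60 ± 0.99 TPM in tumors (SD, n = 3) and 9.90 ± 2.58 TPM in controls (SD, n = 6), a 3.81-fold lower mean, with a log2 fold change of -1.59 (SE 0.27, adjusted p = 3.26e-04, limma). Bmpr1b was called lower in all 20 alternative fits of this comparison, with differences from -1.94 to -1.39.

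The paralog Bmpr1a, which encodes the other main BMP type I receptor, did not follow. It stood at 47.0, 39.8 and 33.1 TPM in tumors and between 30.1 and 36.7 TPM in controls, and its log2 fold change was 0.21 (SE 0.11, adjusted p = 0.12, limma). Since TPM is scaled for length, the 2 genes can be set side by side. The level of Bmpr1a was 12.8 to 19.2 times that of Bmpr1b in tumors, 3.25 to 4.47 times in adjacent cerebella and 3.12 to 6.31 times in controls. The ratio in every tumor lay above that in every other sample. It is built from the values above, with Bmpr1b already lower in tumors, and is no separate result. Bmpr2, the type II receptor gene, stood at 18.8, 23.7 and 16.3 TPM in tumors and between 26.9 and 33.7 TPM in controls. Its groups did not overlap, and its log2 fold change of -0.59 (SE 0.12, adjusted p = 0.00156, limma) passed the p threshold but not the minimum fold.

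The ID genes did not move together. Id1 was higher, Id2 was lower and Id3 was not called. Id1 stood at 94.2, 50.5 and 52.5 TPM in tumors, 33.0, 20.1 and 32.2 TPM in Brca2-mut;Trp53-WT cerebella and 28.0, 31.6 and 31.0 TPM in Brca2-WT;Trp53-mut cerebella. Every tumor was above every control, and the GB344 tumor was the highest of all samples. The mean was 65.8 ± 24.7 TPM in tumors (SD, n = 3) and 29.3 ± 4.82 TPM in controls (SD, n = 6), a 2.24-fold higher mean. The log2 fold change was 1.10 (SE 0.21, adjusted p = 8.99e-04, limma). The call was lost without the GB344 tumor (0.81, adjusted p = 0.00193), without the GB508 cerebellum (0.997, adjusted p = 0.0012), against the Brca2-mut;Trp53-WT cerebella alone (1.16, adjusted p = 0.0105) and without the 4 controls over 100 TPM of Ttr (1.28, adjusted p = 0.0234). The last of these left only GB508 and GB512 as controls.

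Id2 was the most abundant of the 10 genes in every control. It stood at 86.4, 203 and 134 TPM in tumors, 370, 327 and 276 TPM in Brca2-mut;Trp53-WT cerebella and 236, 284 and 274 TPM in Brca2-WT;Trp53-mut cerebella. The groups did not overlap, and the mean was 2.08-fold lower in tumors (141 ± 58.7 TPM, SD, n = 3) than in controls (294 ± 47.0 TPM, SD, n = 6). The log2 fold change was -1.12 (SE 0.23, adjusted p = 0.00128, limma). The call was lost with quantile normalization (-0.95), without the GB344 tumor (-0.82), against the Brca2-WT;Trp53-mut cerebella alone (-0.98, adjusted p = 0.0211) and without the 4 controls over 100 TPM of Ttr (-1.17, adjusted p = 0.0342). The last of these left only GB508 and GB512 as controls.

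Id3 stood at 94.2, 46.6 and 32.1 TPM in tumors and between 40.8 and 54.9 TPM in controls. The GB344 tumor was above every control and the GB370 tumor below every control. The log2 fold change was 0.19 (SE 0.26, adjusted p = 0.523, limma) and turned to -0.23 without the GB344 tumor. In that tumor, Bmp4, Bmp7, Bmpr1a, Bmpr1b, Id1 and Id3 were each at their highest among tumors, and Bmp5 and Id2 at their lowest. The fibroblast marker sum was also highest in the GB344 tumor, with 4 of 6 markers. Apart from the astrocyte and Bergmann glia sum, every other marker sum was lowest there among tumors. The granule progenitor sum was 741 TPM, against 1332 in GB359 and 1508 in GB370. In the same order, Purkinje cell markers summed to 70.0, 242 and 335 TPM. Mature granule cell markers summed to 103, 352 and 255 TPM, and oligodendrocyte markers to 93.1, 290 and 186 TPM. Endothelial markers summed to 96.4, 101 and 153 TPM, and mural cell markers to 54.8, 72.6 and 171 TPM. Microglia markers summed to 168, 246 and 172 TPM, and choroid plexus markers to 48.0, 49.2 and 54.4 TPM. The astrocyte and Bergmann glia sum lay between those of the other tumors. The part of these differences in the gene values above was not tested.

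**Figure D2:**
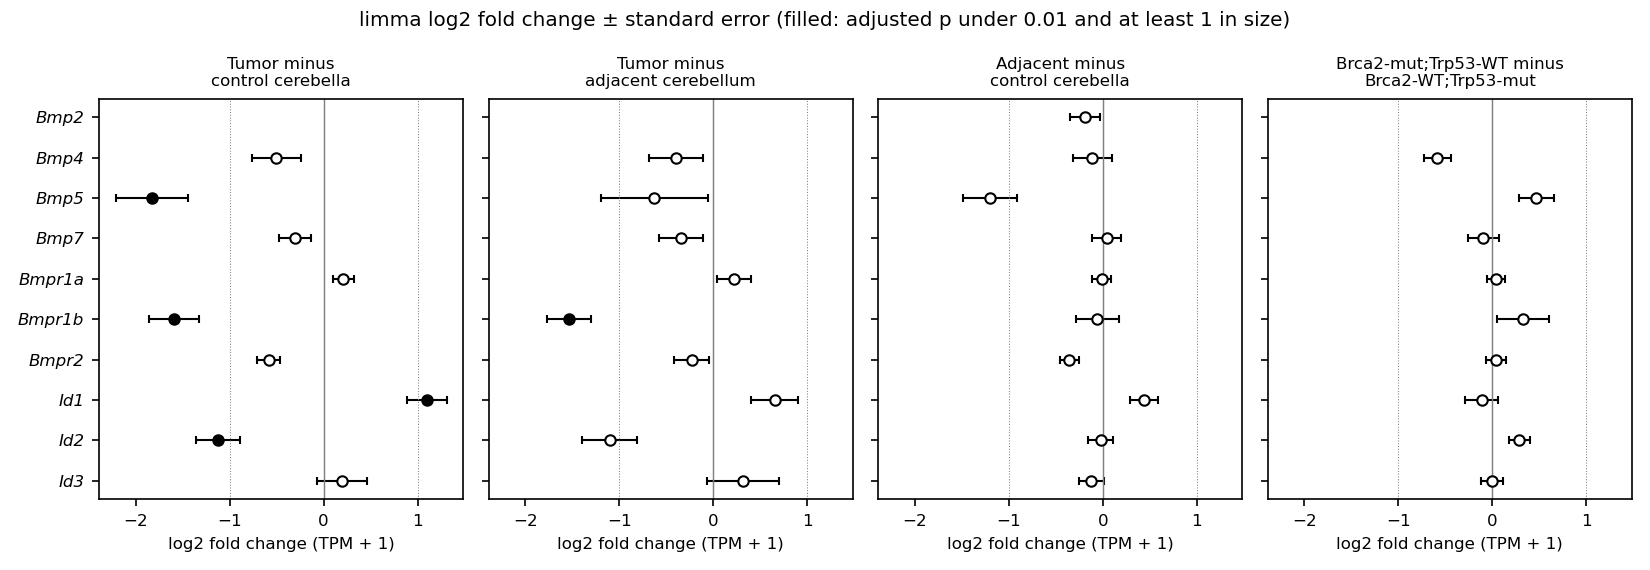
limma log2 fold change of TPM + 1 (horizontal axis, bars give the standard error) of the 10 genes in the 4 comparisons, with filled points for genes called at an adjusted p under 0.01 and a size of at least 1. Bmpr1b is filled in both comparisons with tumors, Id1, Bmp5 and Id2 only in that with control cerebella, and nothing is filled among the non-tumor cerebella.

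The fourth ID gene, Id4, was not among the 10 but is read by the same assay and completes the family. It stood at 5.01, 14.5 and 12.1 TPM in tumors, between 81.2 and 131 TPM in adjacent cerebella and between 120 and 186 TPM in controls. The mean was 13.9-fold lower in tumors than in controls, with a log2 fold change of -3.77 (SE 0.26, adjusted p = 4.26e-07, limma). The levels of the 4 ID genes summed to 231 to 315 TPM in tumors, 423 to 515 TPM in adjacent cerebella and 427 to 630 TPM in controls. Id1 made up 16.1 to 33.7% of the sum in tumors and 3.76 to 6.55% in controls, and Id4 made up 1.79 to 5.25% in tumors and 27.3 to 29.7% in controls. The level of Id2 was 0.917 to 4.02 times that of Id1 in tumors, 5.75 to 8.19 times in adjacent cerebella and 8.44 to 16.3 times in controls. These 3 ranges did not overlap. The ratio pairs 2 genes already seen to differ in opposite directions, so it restates their values and is no separate result.

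**Figure D3:**
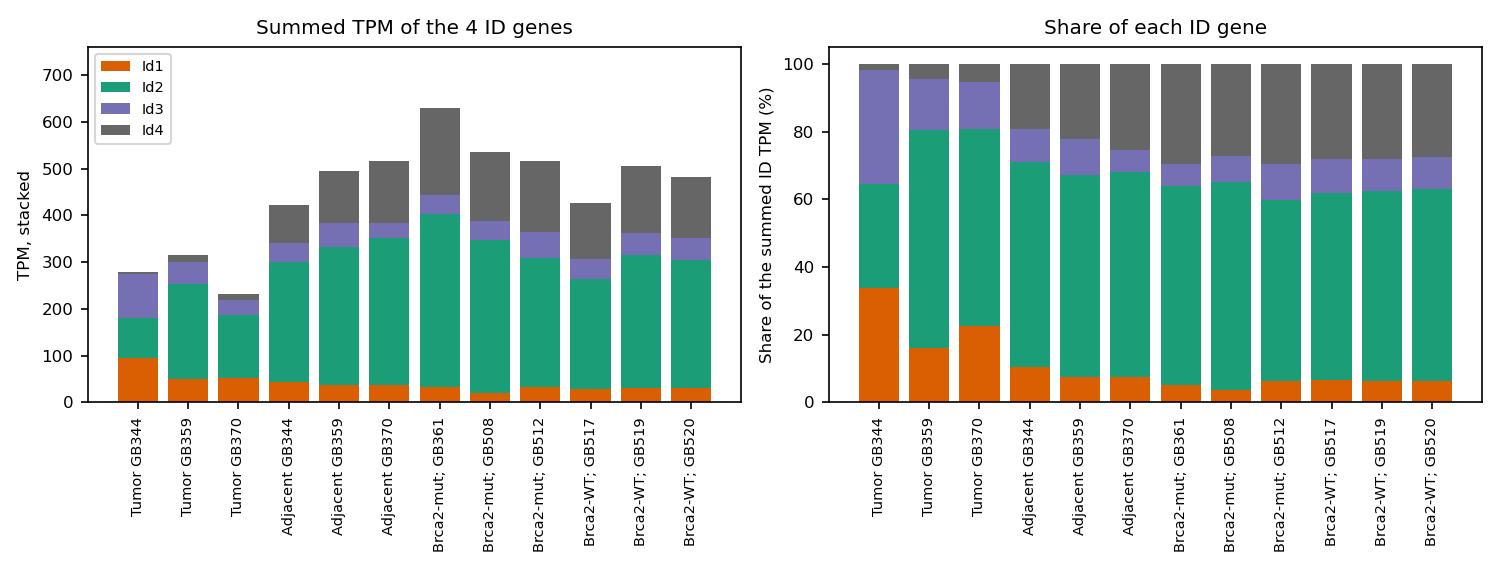
Stacked TPM of Id1, Id2, Id3 and Id4 in each of the 12 samples (left, vertical axis in TPM) and the share of each gene in that sum (right, vertical axis in percent). The tumor sums lie between 231 and 315 TPM, below every other sample, and Id4 takes at most 5.25% of the sum in tumors.

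Promoters of the called genes Id2, Bmp5, Bmpr1b and Id4, and of Id3 as an ID gene that was not called, are shown because SMADs are known to bind GC-rich elements such as GGCGCC and the shorter box CAGAC. Promoters (250 bases before to 50 after the start) were taken from RefSeq on GRCm38.p6, which is mm10, and were found for 8 of 11 genes (the 10 and Id4). None was found for Bmp2, Bmp7 or Id1, so the only gene of the 10 called higher, Id1, is not covered. Each is given 5′ to 3′ on the gene's strand, in lower case, with capitals for each GGCGCC and for each CAGAC on either strand (on the other strand CAGAC reads GTCTG).
Id2, chr12:25096043-25096342, minus strand: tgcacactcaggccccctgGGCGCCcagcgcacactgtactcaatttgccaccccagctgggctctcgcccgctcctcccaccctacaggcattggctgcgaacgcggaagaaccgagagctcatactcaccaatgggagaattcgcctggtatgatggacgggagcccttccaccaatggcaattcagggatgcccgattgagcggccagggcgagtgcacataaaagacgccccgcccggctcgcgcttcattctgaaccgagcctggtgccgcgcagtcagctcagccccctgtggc
Id3, chr4:136143572-136143871, plus strand: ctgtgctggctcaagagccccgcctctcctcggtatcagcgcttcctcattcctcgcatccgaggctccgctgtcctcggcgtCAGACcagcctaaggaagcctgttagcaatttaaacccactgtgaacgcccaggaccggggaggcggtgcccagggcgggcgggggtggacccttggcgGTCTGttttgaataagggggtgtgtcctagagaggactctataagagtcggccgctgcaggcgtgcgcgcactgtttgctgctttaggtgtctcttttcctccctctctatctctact
Id4, chr13:48260866-48261165, plus strand: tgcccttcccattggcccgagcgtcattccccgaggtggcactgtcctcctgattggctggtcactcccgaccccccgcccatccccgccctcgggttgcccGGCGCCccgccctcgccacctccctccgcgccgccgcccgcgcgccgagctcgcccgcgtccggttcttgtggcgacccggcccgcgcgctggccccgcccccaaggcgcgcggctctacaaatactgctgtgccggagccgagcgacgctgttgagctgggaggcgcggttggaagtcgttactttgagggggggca
Bmp5, chr9:75775115-75775414, plus strand: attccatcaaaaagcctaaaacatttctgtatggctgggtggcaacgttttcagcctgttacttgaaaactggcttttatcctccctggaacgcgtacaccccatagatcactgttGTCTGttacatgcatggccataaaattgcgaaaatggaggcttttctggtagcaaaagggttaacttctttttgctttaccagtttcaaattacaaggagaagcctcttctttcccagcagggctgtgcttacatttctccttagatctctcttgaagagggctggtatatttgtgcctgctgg
Bmpr1b, first listed start, chr3:141982215-141982514, minus strand: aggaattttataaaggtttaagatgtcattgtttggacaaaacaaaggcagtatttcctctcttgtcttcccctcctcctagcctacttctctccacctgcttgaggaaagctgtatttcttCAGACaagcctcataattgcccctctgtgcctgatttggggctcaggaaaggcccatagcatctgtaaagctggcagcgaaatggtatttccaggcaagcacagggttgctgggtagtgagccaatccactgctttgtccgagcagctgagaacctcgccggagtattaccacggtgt
The Id2 and Id4 promoters each held 1 GGCGCC and no CAGAC, that of Id3 held 2 CAGAC and no GGCGCC, and those of Bmp5 and Bmpr1b held 1 CAGAC each. Of the promoters not printed, those of Bmpr1a and Bmpr2, which were not called, also held 1 copy of the longer motif and none of the shorter. That of Bmp4 held neither motif, and the other 2 starts of Bmpr1b held 1 and 0 of the shorter. Every listed start of Bmpr1b, the printed one included, lies inside the gene's span (chr3:141837135-142169585). A promoter at the outer 5′ end of Bmpr1b is therefore not covered, and its values here describe an internal start. GGCGCC was found on either strand in 11.9% of 32851 promoters of this length and CAGAC in 49.6%, and no printed promoter held both. The printed Id2 and Id4 promoters were 63.3 and 73.3% GC with 21 and 39 CpG dinucleotides, whereas those of Bmp5 and Bmpr1b were 43.3 and 48.3% GC with 4 and 5. A match of letters is a description and shows no binding.

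In the genome, Bmpr1b spans chr3:141837135-142169585 and Bmp5 chr9:75775365-75900316, both on mm10 as given by RefSeq. Id1 is a short gene at chr2:152736251-152737410, Id2 lies at chr12:25093799-25096092 and Id4 at chr13:48261116-48266028.

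The second comparison set each tumor group against cerebellum of the same mice. Bmpr1b was lower in tumors here as well, and no other of the 10 genes was called. That is 1 lower and 0 higher of 9 tested, where 18% of 15845 tested genes were lower and 4.76% higher. The groups did not overlap for 3 of the 10, against 62.6% of all tested genes. At an unadjusted p under 0.05, limma gave 1 higher (Id1) and 2 lower (Bmpr1b and Id2), where 57.1% of all tested genes had such a p. Bmpr1b stood at 8.89, 9.75 and 8.85 TPM in the adjacent cerebella of GB344, GB359 and GB370, above each tumor of the same mice. Its mean was 3.53-fold lower in tumors, with a log2 fold change of -1.53 (SE 0.23, adjusted p = 0.00224, limma, and 0.00507 with the mouse as a block). The call was lost without the adjacent cerebellum of GB359 (-1.49, adjusted p = 0.012) and without both adjacent cerebella over 20 TPM of Atoh1 (-1.49, adjusted p = 0.0489).

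The ID genes kept the sides they held against controls without passing the threshold. Id2 stood at 255, 297 and 313 TPM in the adjacent cerebella, above every tumor, and its log2 fold change was -1.10 (SE 0.29, adjusted p = 0.0195, limma). It was called with all 4 groups in one fit (adjusted p = 0.00231) and without the GB359 tumor (-1.41, adjusted p = 0.00551). Id1 stood at 44.4, 36.7 and 38.2 TPM in the adjacent cerebella, below every tumor, with a log2 fold change of 0.66 (SE 0.25, adjusted p = 0.0643, limma). Id3 overlapped, at 41.8, 51.3 and 33.8 TPM, with a log2 fold change of 0.32 (adjusted p = 0.515, limma).

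Among the ligands, Bmp5 stood at 4.40, 11.7 and 5.0 TPM in the adjacent cerebella. In each mouse the tumor value was lower than the adjacent value, and in both tissues GB359 was highest. The log2 fold change was -0.63 (SE 0.57, adjusted p = 0.389, limma, and 0.0575 with the mouse as a block). Bmp4, Bmp7, Bmpr1a and Bmpr2 had log2 fold changes of -0.39, -0.34, 0.22 and -0.23, each with overlapping groups and an adjusted p of at least 0.255 by limma. Within mice, Bmpr1a was higher and Bmpr2 lower in 3 of 3 tumors, with adjusted p = 0.188 and 0.244 in limma with the mouse as a block. The share of all tested genes with the same side in 3 of 3 mice was not computed, so such counts are descriptions only. The tumors entered both comparisons, so their values are not independent.

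The third comparison asked whether the adjacent cerebella of tumor mice differed from controls. None of the 10 genes was called, where 0.224% of 16091 tested genes were higher and 0.0124% lower. The groups did not overlap for 2 of the 10, beside 19.3% of all tested genes. At an unadjusted p under 0.05, limma gave 1 higher (Id1) and 2 lower (Bmp5 and Bmpr2), where 34.5% of all tested genes had such a p. Bmp5 had a mean of 7.05 ± 4.07 TPM in adjacent cerebella (SD, n = 3), 2.35-fold below that of controls, with a log2 fold change of -1.20 (SE 0.29, adjusted p = 0.0267). GB359 at 11.7 TPM overlapped the controls. Bmpr2 stood at 24.1, 24.9 and 19.96 TPM, all below the controls, with a log2 fold change of -0.36 (SE 0.10, adjusted p = 0.04, limma). Id1 was above every control, with a log2 fold change of 0.44 (SE 0.15, adjusted p = 0.0672, limma). Bmpr1b, Id2 and Id3 differed by -0.06, -0.02 and -0.12 on the log2 scale, with overlapping groups. The summed granule progenitor markers were 52.0 to 400 TPM in the adjacent cerebella and 22.03 to 34.6 TPM in controls, and their part in these values was not tested.

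By mean level over the groups, Bmpr1b and Id2 thus had adjacent and control cerebella near each other and tumors apart. Bmp5, Bmpr2 and Id1 had the adjacent cerebella between tumors and controls. For Bmp5 and Bmpr2 the tumor and adjacent groups overlapped, and for Id1 the neighbouring groups did not overlap but were not called.

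The fourth comparison set the control genotypes against each other. None of the 10 genes was called, where 0.0128% of 15575 tested genes were higher and 0.0449% lower in Brca2-mut;Trp53-WT cerebella. At an unadjusted p under 0.05, limma gave 2 higher (Bmp5 and Id2) and 1 lower (Bmp4), where 20.1% of all tested genes had such a p. Bmp4 stood at 2.46, 2.27 and 2.59 TPM in Brca2-mut;Trp53-WT and 4.27, 3.48 and 4.80 TPM in Brca2-WT;Trp53-mut cerebella. These groups did not overlap, which held for 1 of the 10 genes and for 27% of all tested genes. The log2 fold change of Bmp4 was -0.58 (SE 0.14, adjusted p = 0.101, limma). The genotypes also differed in choroid plexus transcripts, whose 6 markers summed to 30.7 to 890 TPM in the first and 3978 to 5199 TPM in the second. Purkinje cell markers summed to 6782 to 8141 TPM in the first and 4877 to 5330 TPM in the second. Mature granule cell markers summed to 2167 to 2446 against 2513 to 2724 TPM, and granule progenitor markers to 26.0 to 34.6 against 22.03 to 24.3 TPM. The sums of the other lists overlapped. The part of these differences in the values of Bmp4, Bmp5 and Id2 was not tested. Bmpr1b was even in the first genotype (10.8 ± 0.75 TPM, SD, n = 3) and spread in the second (8.96 ± 3.67 TPM, SD, n = 3), where GB517 was low.

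The other genes of the pathway, and 5 bHLH factors that are not part of it, were described by list. Of 58 listed genes, 49 were tested in tumor against control cerebella, and 7 were higher (14.3%) and 12 lower (24.5%). The bHLH factors gave 2 of those higher and 0 of those lower. These shares are near the 14.4% and 21.5% of all tested genes, so the counts show nothing particular to these lists. Their median log2 fold change was -0.16, against -0.11 over all tested genes. In tumor against adjacent cerebellum, 1 of 45 tested was higher (2.22%) and 10 lower (22.2%), beside 4.76% and 18% of all tested genes. The lists below are too short to be read against these shares, and their counts are given as descriptions.

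Of 12 further BMP and GDF ligands, 6 were tested, 2 were lower and 0 higher. At an unadjusted p under 0.05, limma gave 1 higher and 4 lower, where 73.5% of all tested genes had such a p. Gdf10, known as a Bergmann glial transcript in the cerebellum, stood at 18.0, 10.6 and 14.3 TPM in tumors and between 146 and 284 TPM in controls, a log2 fold change of -3.82 (SE 0.20, adjusted p = 8.26e-08, limma). Bmp6, of the same subfamily as Bmp5, stood at 0.345, 1.62 and 2.05 TPM in tumors and between 9.72 and 15.3 TPM in controls, a log2 fold change of -2.65 (SE 0.26, adjusted p = 5.37e-06, limma).

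Of 10 further receptors and coreceptors, 9 were tested, 2 were higher and 0 lower. Limma gave 3 higher and 2 lower at an unadjusted p under 0.05, beside 73.5% of all tested genes. The activin and BMP type II receptor gene Acvr2b stood at 18.5, 21.9 and 20.4 TPM in tumors and between 5.49 and 8.88 TPM in controls (log2 fold change 1.37, adjusted p = 6.59e-06, limma). Neo1, which encodes the receptor neogenin that binds the BMP coreceptors of the RGM family, stood at 89.9, 113 and 112 TPM in tumors and between 34.5 and 44.5 TPM in controls (log2 fold change 1.38, adjusted p = 1.14e-06, limma).

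Of 15 secreted antagonists, 13 were tested, and 1 was higher and 3 lower. Nog, which encodes noggin, a protein that binds BMP2 and BMP4 and keeps them from their receptors, stood at 0.354, 0.752 and 1.02 TPM in tumors and between 10.6 and 14.8 TPM in controls. Its mean was 18.9-fold lower, with a log2 fold change of -3.09 (SE 0.15, adjusted p = 5.79e-08, limma). Sost, which encodes sclerostin, was low, at 0.065, 0.26 and 0.082 TPM in tumors and between 1.86 and 3.70 TPM in controls. Its log2 fold change was -1.70 and ran from -4.44 to -1.52 over the alternatives. The follistatin-like gene Fstl1 was higher by 1.58 on the log2 scale. Chrd, which encodes the antagonist chordin, stood at 40.6, 41.2 and 59.1 TPM in tumors and between 19.6 and 37.5 TPM in controls. It did not overlap but was not called (log2 fold change 0.68, adjusted p = 0.0143, limma).

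Of 11 SMADs and intracellular regulators, all tested, 1 was higher and 3 were lower. Smad9 stood at 3.41, 3.59 and 2.69 TPM in tumors and between 16.4 and 19.6 TPM in controls, a log2 fold change of -2.17 (SE 0.11, adjusted p = 6.07e-08, limma). The other receptor-activated BMP SMADs were not called. Smad1 was at 0.51 (adjusted p = 0.00569, limma) and Smad5 at -0.03 (adjusted p = 0.805, limma) on the log2 scale, and Smad5 flipped to 0.08 and 0.11 under other scalings. The shared partner gene Smad4 was higher (1.19). The inhibitory SMAD gene Smad7 was lower (-1.44, adjusted p = 3.11e-07, limma), and Smad6 passed the p threshold but not the minimum fold (-0.93, adjusted p = 3.09e-04, limma).

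Of the 5 other BMP-responsive genes, 4 were lower and 1 was higher. Besides Id4, the homeobox genes Msx2 (-2.28) and Msx1 (-2.07) were lower. Msx1 lost its call without the 4 controls over 100 TPM of Ttr, which left only GB508 and GB512 (-1.21, adjusted p = 0.0102, limma). Hey1, which is also a known Notch target, was the gene that rose (1.87, adjusted p = 3.48e-06, limma) and was named after its value was seen.

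Of the 5 bHLH factors, 2 were higher and 0 lower. Limma gave 4 higher and 0 lower at an unadjusted p under 0.05, beside 73.5% of all tested genes. Tcf3, which encodes the E proteins E12 and E47 that ID proteins bind, stood at 147, 128 and 143 TPM in tumors, 70.4, 58.0 and 38.7 TPM in adjacent cerebella and 23.8 to 33.2 TPM in controls. Its log2 fold change against controls was 2.20 (SE 0.11, adjusted p = 5.98e-08, limma). Atoh1, the bHLH factor that defines granule cell progenitors, stood at 119, 244 and 319 TPM in tumors and at most 0.212 TPM in controls, where GB508 is listed at 0.

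**Figure D4:**
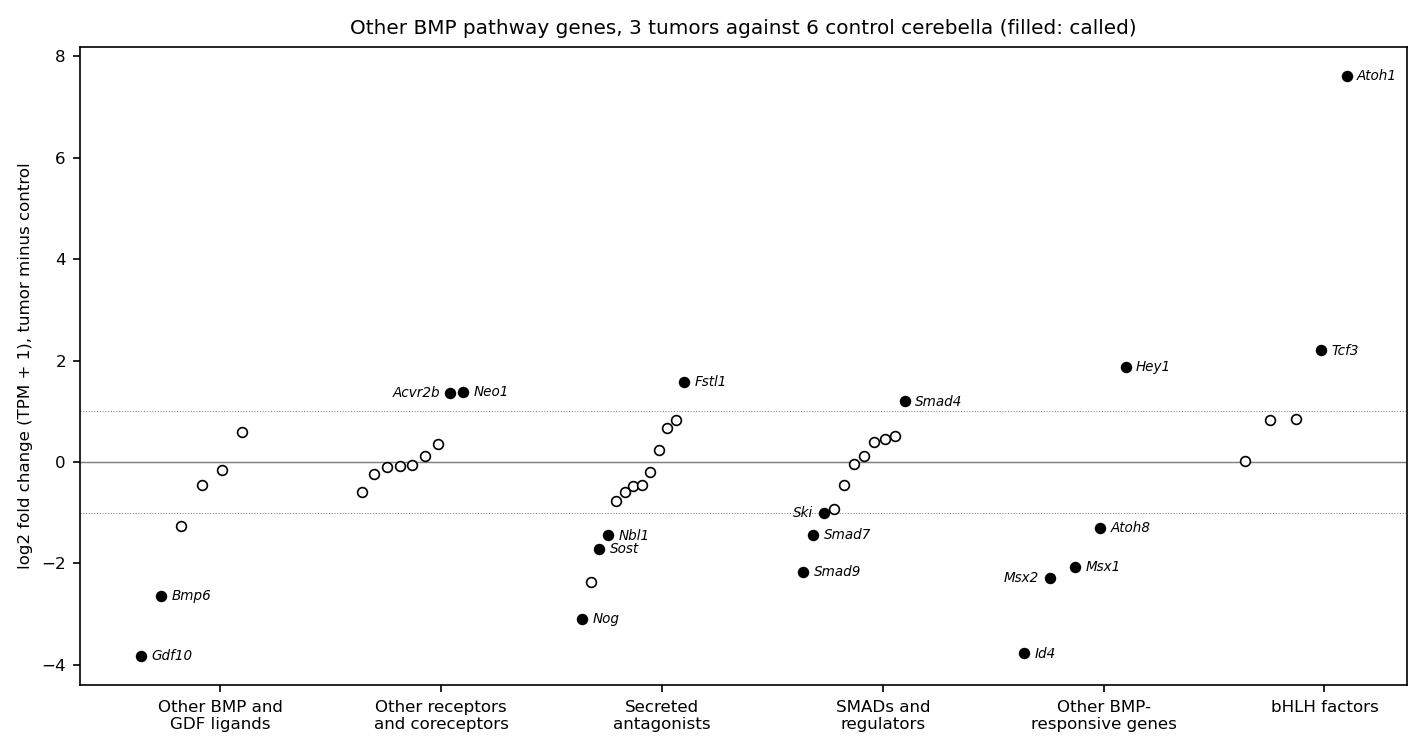
limma log2 fold change of TPM + 1, tumor minus control (vertical axis), of the tested genes of 6 lists of BMP pathway genes and bHLH factors (horizontal axis), with filled, named points for genes called. The lowest points are Gdf10 (-3.82), Id4 (-3.77) and Nog (-3.09), and the bHLH factor Atoh1 (7.61) is the highest.

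For each of the 10 genes, the genes with the most similar pattern over the 12 samples were listed by Pearson's r of log2(TPM + 1). These values are descriptions, since samples of a group share genotype and tissue makeup and the tumors lie apart for many genes. Among 16488 genes compared, those most like Id2 were S100a16 (r = 0.988), Fam45a (0.986) and Lonp2 (0.973), and those most like Id1 were Mov10 (0.972), Ms4a6b (0.971) and Noc2l (0.970). Those most like Bmpr1b were the short microRNA gene Mir6997 (0.962), Samd4 (0.954) and Tnfrsf19 (0.954), and those most like Bmpr2 were Taok1 (0.982), Wnk3 (0.980) and Usp9x (0.980). Those most like Bmp5 were Coa3 (0.960), Sox2 (0.951) and Trove2 (0.947). For Bmpr1a they were Kpna4 (0.972), Paip2 (0.943) and Nabp1 (0.938). For Bmp2 they were Sp7 (0.924), Phlda3 (0.917) and Trp53cor1 (0.913). For Bmp4 they were Lrp10 (0.905), AW011738 (0.901) and Ankrd13b (0.896), for Bmp7 Pak6 (0.876), Xdh (0.866) and Rasl10a (0.865), and for Id3 Lhx9 (0.903), Polr3g (0.892) and Fam46a (0.886).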

How the data were processed

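RNA sequencing of mouse cerebellum and medulloblastoma was analysed in 12 samples, 3 in each of 4 groups taken from the labels. The authors made poly(A) libraries, quantified transcripts with Salmon 0.8.1 on mm10 and summed them to genes. They deposited TPM for 24091 genes, with column sums from 999792 to 999876. The authors' counts and their tests were not used here. Read depth is unknown, so no counting error is given. The sequencing site is stated differently in the labels and the study's methods.

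TPM were transformed to log2(TPM + 1). A gene entered a comparison if 3 or more of its samples reached 1 TPM. The fit was made in R 4.3.3 with limma 3.58.1 (lmFit, then eBayes with trend), and p-values were adjusted by Benjamini-Hochberg across every gene fitted. Calls needed an adjusted p below 0.01 and a log2 fold change of 1 or more in size, the thresholds of the study's methods. Each fit used only the groups compared, without the mouse as a block. Tumor and adjacent samples are paired by animal: deviations from the group means correlated at 0.249, 0.176 and 0.152 within mice and at -0.163 to 0.018 between mice. The fits were also run on simulated data with planted changes larger than the minimum fold and independent noise. Those data held no mouse pairing or control genotypes, so they do not bear on changes near the threshold.

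The genes and lists were chosen with earlier results of these data known. The text names all 10 genes, per pathway list the 3 called genes that differed most in tumor against control cerebella, Id4, Nog, Chrd, Atoh1, Smad1, Smad5, Smad9, Smad6 and Smad7, and the 3 genes most correlated with each. Alternatives changed 1 choice at a time: the pseudocount, the filter, the scaling, the trend, the groups in the fit, the control genotype, the mouse as a block and each sample left out. Leaving out libraries high in Ttr or Atoh1 was added after seeing the data. Without the Ttr-high libraries, the remaining controls were GB508 and GB512, both Brca2-mut;Trp53-WT. Gene names were matched to RefSeq for 24045 genes. Figures were made with matplotlib 3.10.9 in Python 3.11.15.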

Additional observations from a re-analysis of the deposited data

Results flagged for a closer look

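Among the 10 genes, the 6 control cerebella were searched for a single sample far from the others. Bmpr1b was the only gene with such a sample. The Brca2-WT;Trp53-mut cerebellum of GB517 stood at 4.78 TPM, against 10.01 TPM in the next lowest control. The gap took 0.763 of the whole range, above Dixon's critical value for 6 samples. Chance gives about 1 such sample in 20 groups, and 10 were searched. Tumor against control was called for Bmpr1b with and without this library.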

How the results depend on the processing

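Of the 4 genes called in tumor against control cerebella, Bmpr1b stayed called in every alternative and with each sample left out, and the alternatives that ended the calls of Bmp5, Id1 and Id2 stand beside those genes. The replicate block, with the mouse as a block in tumor against adjacent cerebellum, gave 701 genes higher and 2841 lower, against 755 and 2852 without it. It called 1 of the 10 genes lower and changed no other call among them. Depth is unknown and 3 mice a group limit the precision. Where both adjacent libraries over 20 TPM of Atoh1 were left out, the lone adjacent sample was assumed to vary like the other group. The causes of the shifts below were not tested.

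In tumor against control cerebella, the genes called higher among the 10 fell to 0 with Brca2-mut;Trp53-WT controls alone and without the Ttr-high controls, and those called lower to 1 with Brca2-WT;Trp53-mut controls alone and without the Ttr-high controls. Smad5 turned to 0.081 with median-of-ratios scaling, 0.11 with quantile normalization, 0.00016 with Brca2-mut;Trp53-WT controls alone and 0.014 without the Ttr-high controls. Smad6 was called at a pseudocount of 0.1 (-1.54) or 0.01 (-1.66).

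In tumor against adjacent cerebellum, the genes called higher came to 465 with no filter, 1278 with all 4 groups in one fit and 500 without the Atoh1-high libraries, where 598 were lower. Scaling moved the split from 755 higher and 2852 lower to 1296 and 2476 (median-of-ratios) or 1603 and 2192 (quantile), while the median of all genes moved from -0.14 to 0.02 or 0.12. Quantile normalization turned Bmp7 to 0.030 and Bmpr2 to 0.032. The genes called lower among the 10 numbered 2 with all 4 groups in one fit and 0 without the Atoh1-high libraries.

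In adjacent against control cerebella, 36 genes were higher and 2 lower. Those higher numbered 4 with no filter, 10 without trend, 22 with all 4 groups, 2 or 7 with Brca2-mut;Trp53-WT or Brca2-WT;Trp53-mut controls alone, 0 without the Ttr-high controls and 5 without the Atoh1-high libraries. Those lower numbered 5 at a pseudocount of 0.01, 0 with no filter, 0 without trend, 9 with all 4 groups, 22 with Brca2-WT;Trp53-mut controls alone, 0 without the Ttr-high controls and 10 without the Atoh1-high libraries. The split was 51 and 7 with median-of-ratios scaling and 41 and 18 with quantile normalization. Signs turned for Bmp4 (0.18 with Brca2-mut;Trp53-WT controls, 0.19 without the Ttr-high controls, 0.018 without the Atoh1-high libraries) and Bmp7 (-0.021 median-of-ratios, -0.13 quantile, -0.0057 with Brca2-WT;Trp53-mut controls, -0.067 without the Ttr-high controls). They also turned for Bmpr1a (0.0085 and 0.011 in those last 2 settings), Bmpr1b (0.11 with Brca2-WT;Trp53-mut controls) and Id2 (0.12 with those controls, 0.10 without the Atoh1-high libraries).

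Between the control genotypes, 2 genes were higher and 7 lower. Those lower numbered 0 at a pseudocount of 0.01, 1 with no filter, 1 with a 5 TPM filter, 1 without trend and 19 with all 4 groups, and the split was 2 and 2 (median-of-ratios) or 2 and 1 (quantile). Id3 turned to 0.077 and 0.076 under these scalings and Bmp7 to 0.016 under quantile normalization.

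With 1 sample left out at a time, the genes called higher among the 10 in tumor against control ranged from 0 to 1, with Id3 from -0.23 to 0.54 and Smad5 from -0.076 to 0.032. In tumor against adjacent, the genes higher ranged from 189 (without the GB370 tumor) to 913, those lower among the 10 from 0 to 2, and Id3 from -0.10 (without the GB344 tumor) to 0.66. In adjacent against control, the genes higher ranged from 0 (without GB520) to 564 (without the GB370 adjacent cerebellum) and those lower from 0 to 29 (without the GB359 adjacent cerebellum). There, Id2 ranged from -0.083 to 0.063, Bmp7 from -0.10 to 0.13, Bmpr1a from -0.13 to 0.10 and Id3 from -0.27 to 0.026. Between the control genotypes, the genes higher ranged from 2 to 5 and those lower from 2 to 27 (without GB361). There, Bmp7 ranged from -0.22 to 0.062, Bmpr1a from -0.035 to 0.095, Bmpr2 from -0.041 to 0.11, Id3 from -0.14 to 0.069, Id1 from -0.23 to 0.11 and Bmpr1b from -0.027 to 0.54.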

Other observations

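Some further genes of the pathway are given here because of values noticed after they were seen. Except for Msx1, which is named above, they lie outside the naming rule. The BMP and Wnt antagonist gene Sostdc1 stood at 18.3, 25.0 and 19.5 TPM in the Brca2-WT;Trp53-mut cerebella and 3.64 TPM in GB361, against at most 0.664 TPM in the other 8 samples. Msx1 stood at 11.6, 15.1 and 11.1 TPM in the same 3 cerebella and 5.27, 3.48 and 3.62 TPM in the Brca2-mut;Trp53-WT cerebella. The genotypes did not overlap for either gene, as for 27% of all tested genes. Neither gene was called (Sostdc1 -3.53, adjusted p = 0.0401, and Msx1 -1.42, adjusted p = 0.0311, limma). The samples high in Sostdc1 were those over 100 TPM of the choroid plexus transcript Ttr.

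The antagonist gene Nbl1 was lower in tumors, at 34.5, 29.7 and 23.3 TPM, than in controls, at 65.3 to 92.5 TPM (log2 fold change -1.45, adjusted p = 3.91e-06, limma). The SMAD corepressor gene Ski was lower as well, at 73.6, 62.4 and 58.4 TPM against 107 to 146 TPM (-1.01, adjusted p = 1.43e-05, limma).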
